A study of Mus musculus with 6 samples.

Results

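The genes described here are 36 members of the mouse chemokine system, taken by symbol from a count table of 35275 genes. They are 23 chemokine ligands, 10 signalling receptors and 3 atypical receptors, and each matched exactly 1 Ensembl gene identifier in the table. Poly-A RNA sequencing had been run on liver cells of 1-year-old mice that carried p16-Cre and Rosa26-mTmG, alleles that both groups of libraries share. In these mice the p16 gene (Cdkn2a) drives the Cre recombinase, and Cre turns the membrane reporter from a red to a green protein, so that a cell also turns green when a cell it descends from had used p16. Cells carrying CD31, an adhesion molecule of endothelium, platelets and many leukocytes, were enriched with magnetic beads and then sorted on GFP. The comparison is of 3 libraries from the GFP-positive fraction with 3 from the GFP-negative fraction, and asks how the fractions differ. The growth protocol also mentions culture in endothelial medium. The labels say neither whether RNA was taken before or after it, nor which animals, pools or batches the libraries came from. The p-values below therefore weigh differences only against library-to-library spread, and that spread may be technical.

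Chemokines are small secreted or membrane-bound proteins that draw leukocytes along a gradient through G protein-coupled receptors on the responding cell. Atypical receptors bind the same ligands without G protein signalling and carry them across cells or remove them. In the liver, sinusoidal endothelium and Kupffer cells, the resident macrophages, present chemokines to lymphocytes and monocytes passing through the sinusoids.

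The libraries held 16766556 to 22627555 counts, and 12122 genes passed a filter on low counts and were tested. Cdkn2a, the gene behind the reporter, had 15, 27 and 7 counts in the GFP-positive libraries and 0 in each GFP-negative library, at least 19.4-fold higher against a floor of 3 counts over the group. The fractions also differed in markers of the cell types they could hold. All 10 Kupffer cell markers were higher in the GFP-positive group, with a summed level of 20458 to 21812 CPM (TMM-scaled counts per 1000000) against 1261 to 1673. All 10 sinusoidal endothelial markers were higher too, at 11764 to 13270 against 4649 to 5342 CPM, as were 7 of 10 pan-endothelial markers. All 9 B cell markers were lower, at 50.1 to 100.4 CPM in the GFP-positive and 8743 to 9189 CPM in the GFP-negative libraries, and Pax5 had no count in any GFP-positive library. T and NK cell markers summed to 10.2 to 75.2 against 290.4 to 332.7 CPM, and 1 of 8 tested was lower. In bulk libraries such as these, fewer cells of a type and less RNA per cell cannot be told apart.

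Of the 36 genes, 27 passed the filter, 6 were higher and 4 were lower in the GFP-positive group by edgeR's quasi-likelihood test at an adjusted p under 0.05. All 6 higher genes encode ligands, namely Ccl6, Ccl24, Cxcl13, Cxcl9, Cxcl12 and Cxcl16. All 4 lower genes encode signalling receptors, namely Ccr7, Ccr6, Cxcr4 and Cxcr5. The 6 higher genes are 22.2% of the 27 members tested, beside 7.65% of all genes tested, and the 4 lower genes are 14.8%, beside 10.1% of all. The ranges of the groups did not overlap for 13 of the 27 members tested with the GFP-positive libraries higher, beside 18.5% of all genes tested. They did not overlap for 5 of the 27 with the GFP-positive libraries lower, a smaller share than the 23.9% of all genes tested. The median log2 fold change, given here as GFP-positive over GFP-negative, was 1.79 over the 19 ligands tested and −6.16 over the 6 signalling receptors tested. It was 1.55 over the 2 atypical receptors tested and −0.09 over all genes tested. The other 4 signalling receptors were not tested. Of these, Ccr1 and Ccr3 had more counts in the GFP-positive group, and Ccr2 and Ccr9 had fewer.

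**Figure D1:**
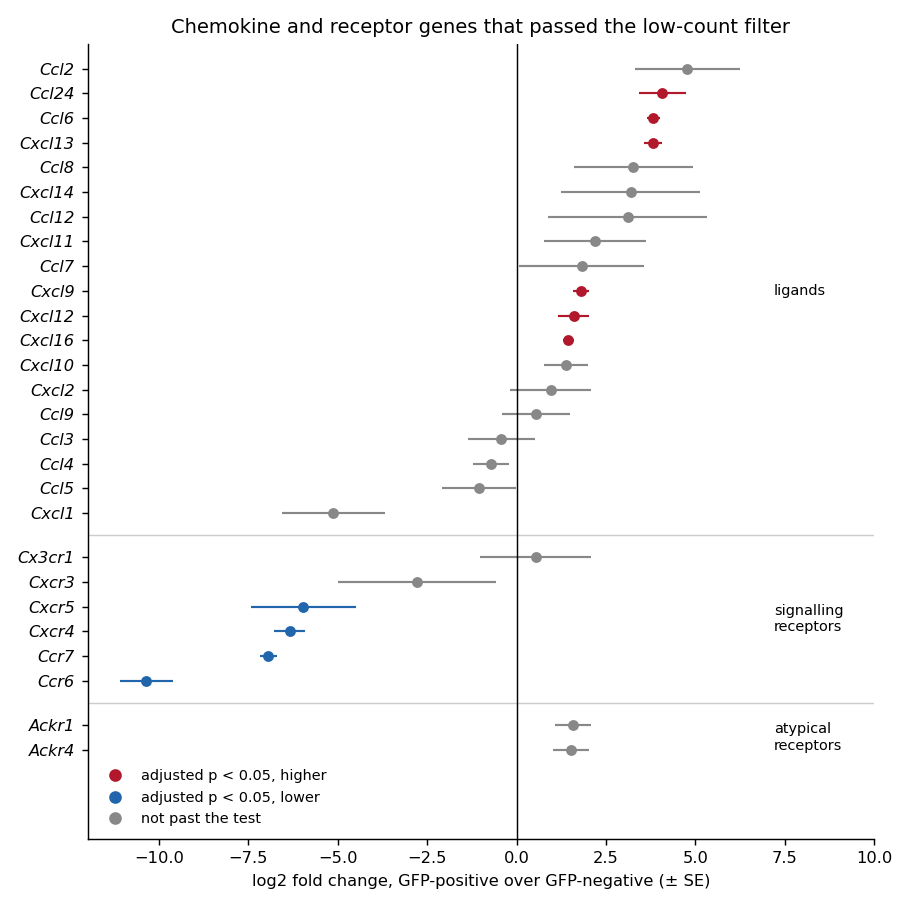
Log2 fold change (horizontal axis) of the 27 chemokine and receptor genes tested, with bars for the SE, grouped as ligands, signalling receptors and atypical receptors. Of the ligands 6 passed the test and lie to the right of 0, and of the signalling receptors 4 passed and lie to its left, from −5.96 for Cxcr5 to −10.36 for Ccr6.

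The stretches of DNA just before the start of 5 ligand genes are shown here. They include neighbouring ligands that fell on different sides of the test threshold. Ccl6 and Ccl9 lie next to each other on chromosome 11, and Cxcl9 and Cxcl10 lie on chromosome 5 with Art3 between them. In each pair the first named rose and the second did not pass the test. The second genes also had positive log2 fold changes, 0.54 for Ccl9 and 1.38 for Cxcl10. The genes of a pair were not tested against each other. Cxcl13, also on chromosome 5, had the same log2 fold change of 3.82 as Ccl6. The sequences are the 250 bases before the RefSeq start, read 5′ to 3′ on the gene's strand, from RefSeq on GRCm38.p6. Capitals mark matches to an NF-kappaB consensus, to TGANTCA, the AP-1 motif, or to the interferon-response motif, which is GAAA, NN and GAAA in a row.
Ccl6 (chr11:83593088-83593337, minus strand): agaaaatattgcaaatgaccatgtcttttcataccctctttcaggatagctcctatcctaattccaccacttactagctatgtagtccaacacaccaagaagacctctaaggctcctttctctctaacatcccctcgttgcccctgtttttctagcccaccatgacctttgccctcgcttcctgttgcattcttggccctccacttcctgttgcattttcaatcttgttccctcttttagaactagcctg
Ccl9 (chr11:83578637-83578886, minus strand): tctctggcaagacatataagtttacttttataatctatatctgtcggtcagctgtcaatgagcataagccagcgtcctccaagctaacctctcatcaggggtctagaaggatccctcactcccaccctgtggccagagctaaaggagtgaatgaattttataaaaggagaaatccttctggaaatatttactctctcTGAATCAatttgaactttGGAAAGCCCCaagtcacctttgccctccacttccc
Cxcl9 (chr5:92328080-92328329, minus strand): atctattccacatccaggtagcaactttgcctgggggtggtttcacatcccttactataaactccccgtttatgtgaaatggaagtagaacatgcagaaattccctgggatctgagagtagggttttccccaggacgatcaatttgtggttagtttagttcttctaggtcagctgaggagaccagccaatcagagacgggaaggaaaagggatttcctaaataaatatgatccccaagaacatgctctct
Cxcl10 (chr5:92348890-92349139, minus strand): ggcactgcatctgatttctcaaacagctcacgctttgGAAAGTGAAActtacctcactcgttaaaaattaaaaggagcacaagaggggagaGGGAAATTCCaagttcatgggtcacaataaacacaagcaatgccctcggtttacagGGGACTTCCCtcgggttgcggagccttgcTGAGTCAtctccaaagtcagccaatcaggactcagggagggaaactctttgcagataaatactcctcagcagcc
Cxcl13 (chr5:95956689-95956938, plus strand): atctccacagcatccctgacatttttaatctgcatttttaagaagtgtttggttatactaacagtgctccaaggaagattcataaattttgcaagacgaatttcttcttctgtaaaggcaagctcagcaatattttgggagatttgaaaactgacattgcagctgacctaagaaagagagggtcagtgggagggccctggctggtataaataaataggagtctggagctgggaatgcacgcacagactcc

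The windows of Ccl6, Cxcl9 and Cxcl13 held no match to any of the 5 motifs searched. That of Ccl9 held TGANTCA and, 35 to 26 bases before the start, an NF-kappaB match, and that of Cxcl10 held all 3 kinds of capitalised motif. RefSeq windows were found for 27 of the 36 genes, 28 in all because Ccr6 has 2, and both strands were searched for the 3 motifs above, for TTCNNNGAA, a STAT motif, and for GAGGAAG, a PU.1 motif. The NF-kappaB consensus was in 6 of the 28 windows (Ccl9, Cxcl1, Cxcl2, Cxcl10, Ccr3 and Ccr6) and in 3.9% of 32851 RefSeq windows. TGANTCA was in 3 of 28 and in 6.75% of all, the interferon-response motif in 2 and in 2.98%, TTCNNNGAA in 3 and in 7.02%, and GAGGAAG in 5 and in 10.6%. Of the 6 genes past the test that have a window, Ccr6 alone held any of the 5. A match is only a string of letters, not a bound site.

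Among the ligands, Ccl6, Cxcl13 and Ccl24 rose the most of those past the test. Ccl6 (ENSMUSG00000018927), a CC chemokine that signals through Ccr1 in mice, stood at 55.9, 42.4 and 46.8 CPM in the GFP-negative libraries and at 633, 790 and 626 CPM in the GFP-positive libraries. The GFP-positive libraries were all far above the others. The group means were 48.4 ± 6.91 and 683 ± 92.9 CPM (SD, n = 3 each), and on the log2 scale they differed by 3.82 ± 0.18 (SE, edgeR adjusted p = 5.07e-05). Cxcl13 (ENSMUSG00000023078), the ligand that draws B cells into follicles, was at 18.4, 12.9 and 19.2 CPM in the GFP-negative and at 209, 278 and 225 CPM in the GFP-positive libraries. Its log2 fold change was 3.82 ± 0.25 (SE, edgeR adjusted p = 0.000174), with group means of 16.8 ± 3.47 and 237 ± 35.8 CPM (SD, n = 3 each). The lowest GFP-positive library thus lay well above every GFP-negative one.

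Ccl24 (ENSMUSG00000004814), eotaxin-2, attracts eosinophils through Ccr3. It was at 1.81, 8.61 and 9.58 CPM in the GFP-negative libraries, of which the first was low, and at 125, 129 and 84.5 CPM in the GFP-positive ones. The groups did not overlap, and the means of 6.66 ± 4.23 and 113 ± 24.5 CPM (SD, n = 3 each) differed by 4.08 ± 0.65 on the log2 scale (SE, edgeR adjusted p = 0.00767). Ccl6, Cxcl13 and Ccl24 rose in the same libraries as the Kupffer cell markers, and were next set against them. Per 1000 counts of the 10 Kupffer cell markers, Ccl6 had 33.3 ± 9.56 counts in the GFP-negative and 32.4 ± 3.34 in the GFP-positive libraries (SD, n = 3 each), and the groups overlapped. The same ratio for Cxcl13 was 11.5 ± 3.11 and 11.3 ± 1.31, again with overlap. For Ccl24 it was 4.26 ± 2.44 and 5.35 ± 1.13, with overlap. Set against the sinusoidal endothelial markers instead, all 3 were higher in every GFP-positive library, by 5.50 times for Ccl6, 5.49 times for Cxcl13 and 6.74 times for Ccl24 in the group means.

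Cxcl9, Cxcl16 and Cxcl12 rose by less. Cxcl9 (ENSMUSG00000029417), an interferon-gamma-induced ligand that draws activated T cells through Cxcr3, was at 78.9, 93.4 and 55.1 CPM in the GFP-negative and 272, 271 and 245 CPM in the GFP-positive libraries. The GFP-positive values lay close together and above all others. The log2 fold change was 1.79 ± 0.23 (SE, edgeR adjusted p = 0.00294), with means of 75.8 ± 19.3 and 263 ± 14.9 CPM (SD, n = 3 each). Cxcl16 (ENSMUSG00000018920), a membrane-anchored ligand that also binds oxidised lipoprotein, was at 183, 196 and 169 CPM against 555, 516 and 418 CPM. The groups were well separated, with means of 183 ± 13.5 and 497 ± 70.5 CPM (SD, n = 3 each) and a log2 difference of 1.44 ± 0.15 (SE, edgeR adjusted p = 0.00138). In the GENCODE M21 annotation 18.27% of the Cxcl16 exon bases overlap Zmynd15 on the opposite strand, which had 420 to 1101 counts in the GFP-negative and 1166 to 1257 in the GFP-positive libraries. No source used here says whether counting was by strand, so their shared reads cannot be told apart.

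Cxcl12 (ENSMUSG00000061353), which retains leukocytes and progenitor cells in tissues, was at 20.5, 20.0 and 42.4 CPM in the GFP-negative and at 70.6, 115 and 64.1 CPM in the GFP-positive libraries. The groups did not overlap, but GFP-negative library 3 was near the lowest GFP-positive one. Its means were 27.6 ± 12.8 and 83.3 ± 27.8 CPM (SD, n = 3 each), and its log2 fold change was 1.59 ± 0.42 (SE, edgeR adjusted p = 0.0432). This call was the weakest of the 6. It was lost without GFP-negative library 1 (adjusted p = 0.136) or 2 (0.133) and without GFP-positive library 1 (0.0767), 2 (0.121) or 3 (0.0598), and held without GFP-negative library 3 (0.0372). Sinusoidal endothelial markers rose in the same libraries. Per 1000 of their counts, Cxcl12 had 5.54 ± 2.57 and 6.51 ± 1.88 counts (SD, n = 3 each) and Cxcl16 had 36.6 ± 2.76 and 39.0 ± 3.48, with overlapping groups for both. Cxcl9 had 15.2 ± 3.58 and 20.7 ± 0.243 and was higher in every GFP-positive library, by 1.36 times in the means. Per 1000 Kupffer cell marker counts these 3 ligands were lower in every GFP-positive library, at 0.240 times for Cxcl9, 0.216 times for Cxcl12 and 0.190 times for Cxcl16.

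**Figure D2:**
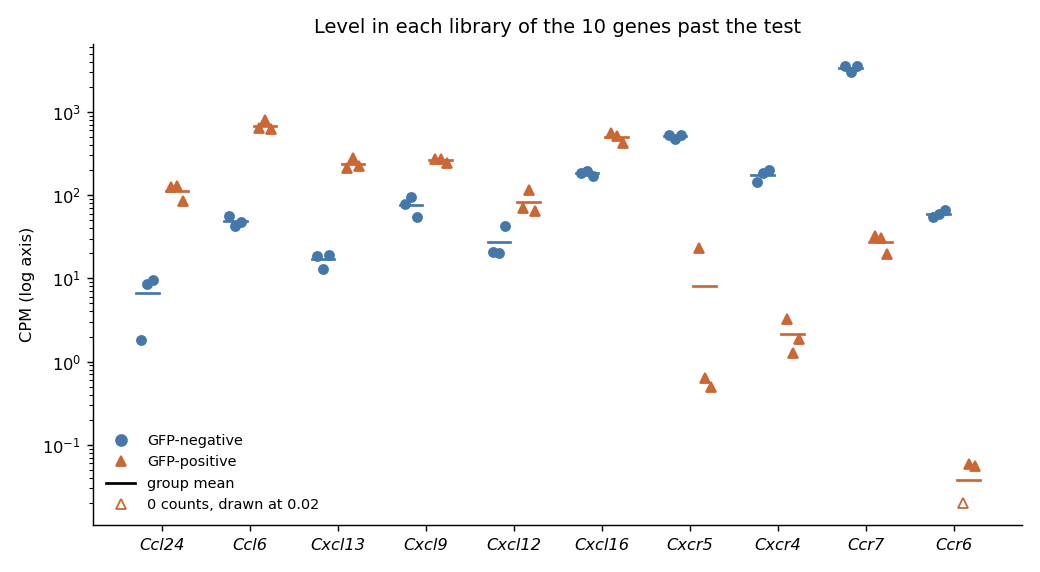
CPM (vertical log axis) of the 10 genes past the test in each of the 3 GFP-negative (circles) and 3 GFP-positive (triangles) libraries, with a line at each group mean and an open triangle for 0 counts. The 6 ligands on the left lie higher and the 4 receptors on the right lower in every GFP-positive library, and GFP-positive library 1 stands above the other two for Cxcr5, at 23.4 CPM.

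The other 13 ligands tested did not pass. Of these, Ccl2, the main monocyte chemoattractant, had the largest positive fold change. It was at 0, 1.21 and 1.52 CPM in the GFP-negative and 33.3, 21.6 and 20.5 CPM in the GFP-positive libraries. The groups lay far apart, yet the log2 fold change of 4.77 ± 1.47 (SE) had an edgeR adjusted p of 0.0691. The adjusted p was 0.0362 without GFP-negative library 1, the one with no count, and 0.106 to 0.163 without each of the other 5 libraries. Ccl8, paired here with the receptor Ccr8, was at 1.19, 5.41 and 0 CPM against 30.7, 11.8 and 20.7 CPM, without overlap (log2 fold change 3.26 ± 1.67, SE, edgeR adjusted p = 0.247). Ccl7, which shares Ccr2 with Ccl2, was at 3.72, 1.32 and 0 CPM against 6.32, 6.99 and 4.54 CPM, at 1.82 on the log2 scale with an adjusted p of 0.560. Ccl12, the other mouse ligand of Ccr2, had 63, 0 and 63 counts in the GFP-positive and 1, 0 and 18 in the GFP-negative libraries, with an adjusted p of 0.419. Cxcl14, a chemokine of epithelia and stroma, had 4.21, 12.5 and 2.94 CPM in the GFP-positive libraries against 0.155, 1.99 and 0 CPM (log2 fold change 3.19, adjusted p = 0.331).

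Cxcl10 and Cxcl11 share Cxcr3 and interferon induction with Cxcl9. Cxcl10 was at 13.1, 7.34 and 31.0 CPM in the GFP-negative and at 27.7, 51.7 and 54.8 CPM in the GFP-positive libraries. The groups overlapped, and its log2 fold change was 1.38 ± 0.61 (SE, edgeR adjusted p = 0.185). In GENCODE M21 5.9% of the Cxcl10 exon bases overlap Art3 on the opposite strand. Art3 had 183 to 418 counts in the GFP-negative and 164 to 1149 in the GFP-positive libraries. Cxcl11 was at 0.0517, 3.59 and 4.79 CPM against 9.42, 19.9 and 9.42 CPM (log2 fold change 2.20 ± 1.42, SE, edgeR adjusted p = 0.365). RefSeq lists Cxcl11 as a transcribed pseudogene in the reference mouse assembly. All 3 genes of this cluster had positive fold changes, and Cxcl9 alone passed.

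Ligands of the early inflammatory response differed in sign. Cxcl1, which attracts neutrophils through Cxcr2, had 68, 36 and 32 counts in the GFP-negative and 1, 2 and 0 in the GFP-positive libraries. The ratio was 39.3, with a 95% interval of 13.5 to 191 from the exact Poisson limits of the summed GFP-positive count. The interval holds the GFP-negative mean fixed. All GFP-positive libraries were lower, but the edgeR adjusted p was 0.0512. Cxcl2, its neighbour and a ligand of the same receptor, was at 1.03, 1.10 and 1.74 CPM against 3.04, 0.583 and 3.88 CPM, with overlap (adjusted p = 0.648). Ccl3, Ccl4 and Ccl5, inflammatory ligands that attract monocytes and T cells, had log2 fold changes of −0.43, −0.71 and −1.05, with adjusted p-values of 0.824, 0.415 and 0.570. For each of the 3, the groups overlapped. Ccl4 was at 34.5, 33.2 and 18.9 CPM in the GFP-negative and 25.4, 15.96 and 11.5 CPM in the GFP-positive libraries. Ccl5 had 285, 13 and 193 counts in the GFP-positive libraries, so that library 2 stood apart. Beside these, 13 of 14 early-response genes such as Fos and Egr1 were lower in the GFP-positive group, with a summed 484 to 646 CPM against 9256 to 9721 CPM, and their part in the ligand levels was not tested. Ccl9, a Ccr1 ligand like Ccl6, was at 3.83, 18.1 and 4.70 CPM against 6.57, 9.21 and 23.1 CPM (log2 fold change 0.54, adjusted p = 0.772).

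The 4 receptors that fell are those of lymphocyte homing. Ccr7 (ENSMUSG00000037944), which brings naive lymphocytes and dendritic cells to lymphoid tissue, was at 3496, 3022 and 3559 CPM in the GFP-negative and at 32.3, 30.2 and 19.5 CPM in the GFP-positive libraries. Every GFP-positive value was a small part of the lowest GFP-negative one. The means were 3359 ± 294 and 27.3 ± 6.85 CPM (SD, n = 3 each), and the log2 fold change was −6.94 ± 0.25 (SE, edgeR adjusted p = 1.68e-05). Cxcr4 (ENSMUSG00000045382), the receptor of Cxcl12, was at 144, 183 and 200 CPM against 3.28, 1.28 and 1.88 CPM. The groups were again far apart, at 175 ± 28.9 and 2.15 ± 1.03 CPM (SD, n = 3 each), with a log2 difference of −6.35 ± 0.44 (SE, edgeR adjusted p = 0.000210).

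Ccr6 (ENSMUSG00000040899), the receptor of Ccl20 on B cells and on helper T cells that make interleukin-17, had 1052, 1065 and 1504 counts in the GFP-negative libraries and 0, 1 and 1 in the GFP-positive ones. The ratio of the groups was 1529, with a 95% interval of 423 to 12622 from the exact Poisson limits of the summed GFP-positive count. The interval holds the GFP-negative mean fixed and covers counting error only. The edgeR adjusted p was 0.000231, and the fitted log2 fold change of −10.36 ± 0.74 (SE) depends on a prior count. Cxcr5 (ENSMUSG00000047880), the receptor of Cxcl13 on B cells and follicular helper T cells, was at 526, 472 and 529 CPM against 23.4, 0.641 and 0.499 CPM. GFP-positive library 1, with 378 counts, stood apart from libraries 2 and 3, with 11 and 9 counts. The means were 509 ± 32.2 and 8.19 ± 13.2 CPM (SD, n = 3 each), and the log2 fold change was −5.96 ± 1.46 (SE, edgeR adjusted p = 0.0322). Without that library it was −9.79 (adjusted p = 8.71e-05). The call was lost without GFP-negative library 1 (0.0922), 2 (0.0917) or 3 (0.0900) or without GFP-positive library 2 (0.0613).

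The B cell markers moved with these receptors. Per 1000 counts of the 9 B cell markers, Ccr7 had 374 ± 36.5 counts in the GFP-negative and 384 ± 194 in the GFP-positive libraries (SD, n = 3 each), and Cxcr4 had 19.6 ± 3.67 and 26.8 ± 5.39, with overlapping groups for both. Cxcr5 had 56.7 ± 4.14 in the GFP-negative group and 233, 12.8 and 5.86 in the 3 GFP-positive libraries, which lie on both sides of it. Ccr6 was lower on this scale too, at 6.64 ± 0.792 and 0.605 ± 0.583, or 0.0911 times, and its groups did not overlap. Per 1000 counts of the T and NK cell markers instead, each of these receptors was lower in every GFP-positive library. The GFP-positive mean was 0.120 times the GFP-negative one for Ccr7, 0.174 times for Cxcr4, 0.0810 times for Cxcr5 and 0.0146 times for Ccr6.

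**Figure D3:**
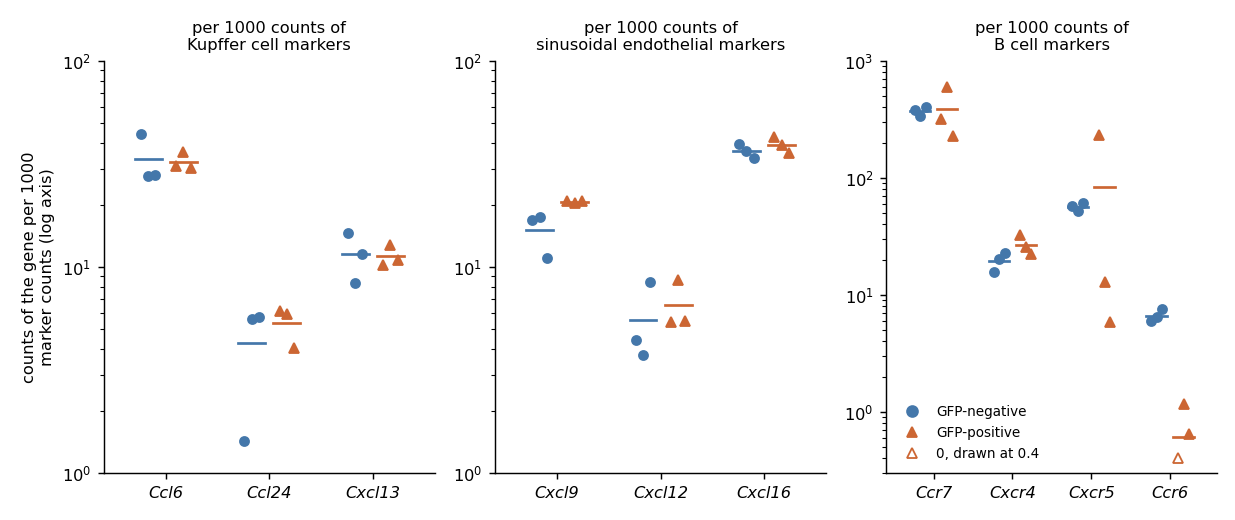
Counts of each gene per 1000 counts of a marker list (vertical log axes) in every library, for Kupffer cell, sinusoidal endothelial and B cell markers, with a line at each group mean. On the list chosen for each gene, the groups overlap except for Cxcl9, which is higher, and Ccr6, which is lower, in every GFP-positive library. For every gene shown, the groups did not overlap on another list given in the text.

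The other signalling receptors were low or uneven between libraries of 1 group. Cxcr3, the receptor of Cxcl9, Cxcl10 and Cxcl11 on activated T cells and NK cells, had 0, 203 and 470 counts in the GFP-negative and 60, 14 and 1 in the GFP-positive libraries (log2 fold change −2.78 ± 2.22, SE, edgeR adjusted p = 0.474). Cx3cr1, the fractalkine receptor of monocytes and some macrophages, had 203, 213 and 21 counts against 365, 3 and 193, and its log2 fold change of 0.53 (adjusted p = 0.871) changed sign without GFP-positive library 1. Ccr1, the receptor of Ccl6 and Ccl9 on myeloid cells, had 355, 0 and 138 counts in the GFP-positive libraries and none in the GFP-negative ones. Its GFP-positive mean was 199-fold above a floor of 3 counts over the GFP-negative group. Ccr1 did not pass the low-count filter, because only 2 libraries held it, and its edgeR adjusted p was 0.110 with no filter. With the filter it was 0.0406 without GFP-positive library 2, the one with no count, and 0.200 to 0.205 without each GFP-negative library. Ccr3, the receptor of Ccl24 on eosinophils, had 352 counts in GFP-positive library 1, 5 in GFP-negative library 2 and 0 in the other 4.

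Ccr2, the monocyte receptor of Ccl2, had 44 counts in GFP-negative library 2, 1 in GFP-positive library 3 and 0 elsewhere. The ratio was 41.5, with a 95% interval of 7.46 to 1641 from the exact Poisson limits of the GFP-positive count. The interval holds the GFP-negative mean, which rests on 1 library, fixed, and covers counting error only. With no filter the edgeR adjusted p of Ccr2 was 0.327. Ccr9, the gut-homing receptor of Ccl25, had 5, 0 and 5 counts in the GFP-negative and none in the GFP-positive libraries. Its GFP-negative mean was 2.72-fold above a floor of 3 counts over the GFP-positive group. Uneven counts within a group, with at least 50 in 1 library and 0 in another, occurred in 6 of the 29 members that reach 50 counts (20.7%), beside 19.6% of 13109 genes that reach them. The 6 are Ccl7, Ccl8, Ccl12, Ccr1, Ccr3 and Cxcr3.

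The remaining ligands were near or at 0 and were not tested. Ccl22, a dendritic cell ligand of Ccr4, had 23 counts in GFP-negative library 2 only. Its GFP-negative mean, which rests on that 1 library, was 7.24-fold above a floor of 3 counts over the GFP-positive group. Cx3cl1, or fractalkine, had 15 counts in GFP-positive library 2 only. Its GFP-positive mean, which rests on that 1 library, was 5.87-fold above a floor of 3 counts over the GFP-negative group. Ccl21a, a Ccr7 ligand of lymphatic endothelium, had 15 counts in GFP-negative library 1 and 10 in GFP-positive library 1, and is uncertain because near-identical copies of the gene can divide its reads. Ccl17, the other Ccr4 ligand, and Ackr3 had 0 counts in all 6 libraries. When edgeR was run without the filter, over 18839 genes, the adjusted p-values of the 7 untested genes with any count ran from 0.110 to 0.957.

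The atypical receptors that could be tested were higher in every GFP-positive library without passing. Ackr1, the Duffy receptor of red cells and venular endothelium that binds many inflammatory chemokines, was at 11.0, 17.3 and 11.8 CPM in the GFP-negative and at 44.1, 54.4 and 20.9 CPM in the GFP-positive libraries. Its means were 13.4 ± 3.46 and 39.8 ± 17.1 CPM (SD, n = 3 each), with a log2 difference of 1.57 ± 0.50 (SE, edgeR adjusted p = 0.0761), and the adjusted p was 0.0423 without GFP-positive library 3 and 0.120 to 0.196 without each of the other 5 libraries. In GENCODE M21 25.69% of its exon bases overlap Cadm3 on the same strand, which had 0 to 5 counts in the GFP-negative and 14 to 25 in the GFP-positive libraries. Ackr4, which removes Ccl19, Ccl21 and Ccl25, was at 7.65, 17.5 and 10.5 CPM against 27.9, 34.1 and 40.3 CPM. Its log2 fold change was 1.52 ± 0.50 (SE, edgeR adjusted p = 0.0812). In GENCODE M21 8.9% of the Ackr4 exon bases overlap Acad11 on the opposite strand. Acad11 had 99 to 1029 counts in the GFP-negative and 164 to 409 in the GFP-positive libraries. Per 1000 sinusoidal endothelial marker counts, Ackr1 and Ackr4 were each 1.16 times as high in the GFP-positive group, with overlapping groups. Set against pan-endothelial markers they were at 1.43 and 1.35 times, again with overlap. Per 1000 Kupffer cell marker counts, both were lower in every GFP-positive library, at 0.209 times for Ackr1 and 0.205 times for Ackr4.

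Ligands were then matched to receptors. The known pairings used here number 36, over 17 receptors, and in 13 of them both genes were tested. In 2 pairs the ligand rose and the receptor fell, namely Cxcl12 with Cxcr4 and Cxcl13 with Cxcr5. Cxcl9 and Cxcl16 rose while their receptors Cxcr3 and Cxcr6 did not pass, with log2 fold changes of −2.78 and −2.30 for the receptors. In the other 9 tested pairs neither passed, and in no pair did both genes pass in the same direction. Ccl6 and Ccl24 rose while their receptors Ccr1 and Ccr3 were not tested, and so did Cxcl12 opposite Ackr3.

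The ratio of ligand to receptor counts is given for the pairs whose ligand rose and receptor fell. For each count of Cxcr5 there were 0.0350, 0.0272 and 0.0364 counts of Cxcl13 in the GFP-negative libraries and 8.93, 433 and 452 in the GFP-positive libraries. For each count of Cxcr4 there were 0.143, 0.109 and 0.212 counts of Cxcl12 against 21.5, 89.9 and 34.0. In both pairs every GFP-positive ratio lay above every GFP-negative one. That order follows from the separate group ranges of the ligand and the receptor, so the ratios add no test. The genes differ in length, so a single ratio says nothing of which is more abundant. The ligands of the other receptors that fell were scarce in both groups, since Ccl20, for Ccr6, had no count and Ccl19, for Ccr7, had 3, 0 and 7 counts against 1, 9 and 17.

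**Figure D4:**
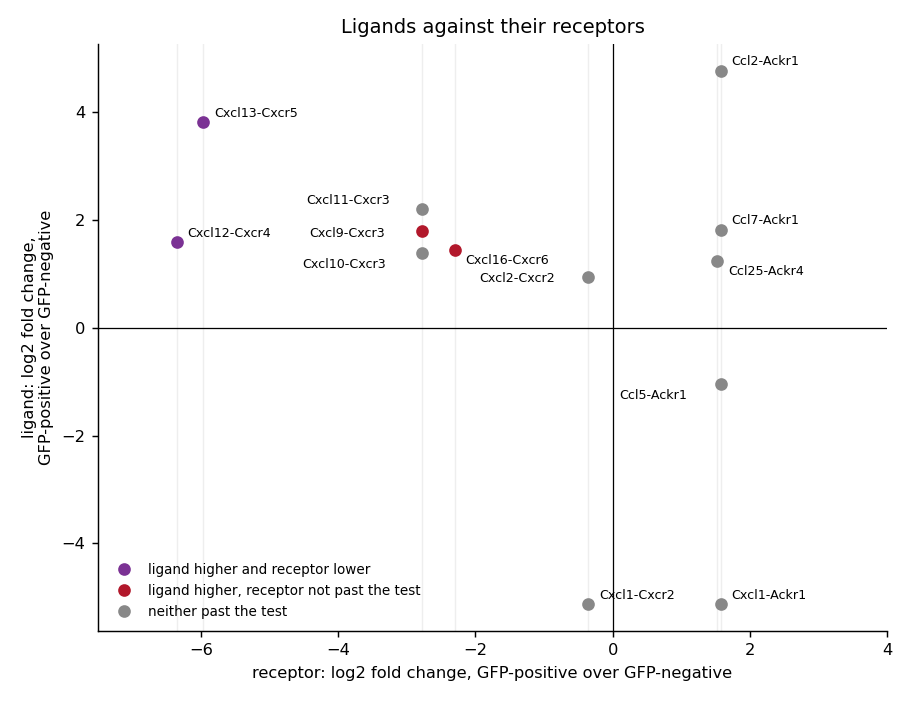
Log2 fold change of the ligand (vertical axis) against that of its receptor (horizontal axis) for the 13 pairs with both genes tested, coloured by which gene passed the test. Cxcl13 with Cxcr5 and Cxcl12 with Cxcr4 lie in the upper left, with a ligand that rose and a receptor that fell, and points of 1 receptor share a vertical line.

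Levels of different genes were compared per kilobase, with exon lengths of GENCODE M21, which may not be the annotation of the counts. In the GFP-negative group Ccr7 led all members at 1698 ± 149 CPM per kilobase (SD, n = 3), followed by Cxcr5 at 153 ± 9.68 and Cxcr4 at 97.0 ± 15.98. The leading ligand there was Cxcl16 at 60.4 ± 4.46, then Ccl4 at 43.7 ± 13.1, Ccl6 at 27.0 ± 3.85, and the receptor Ccr6 at 25.7 ± 2.41. The first 4 genes of this order were apart by more than their SDs, while Cxcl16 and Ccl4, Ccl4 and Ccl6, and Ccl6 and Ccr6 were not. In the GFP-positive group the order was Ccl6 at 381 ± 51.7 CPM per kilobase, Cxcl13 at 206 ± 31.1, Cxcl16 at 164 ± 23.3, Cxcl9 at 87.1 ± 4.96, Ccl24 at 87.0 ± 18.9 and Ccl8 at 41.2 ± 18.5. Cxcl13 and Cxcl16 did not differ beyond their SDs, nor did Cxcl9 and Ccl24, and the other steps did. The 3 leading members were thus receptors in 1 fraction and ligands in the other.

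Of the members 11 lie on chromosome 11, 7 each on chromosomes 5 and 9, and 3 each on chromosomes 1 and 8, some of them next to each other. In the RefSeq order of genes Ccl5, Ccl9, Ccl6, Ccl3 and Ccl4 follow each other on chromosome 11. Of these 5 neighbours Ccl6 alone passed the test, and their log2 fold changes ran from −1.05 for Ccl5 to 3.82 for Ccl6. On chromosome 5 Cxcl9, Cxcl10 and Cxcl11 had log2 fold changes of 1.79, 1.38 and 2.20. Genes next to each other thus did not all pass the test together, though Cxcl9, Cxcl10 and Cxcl11 all had positive log2 fold changes. Neighbours were not tested against each other.

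The rest of the pathway was read from lists of other chemokines, other receptors and the signalling machinery. Of 14 other ligands, 6 were tested and 7 had no count in any library. Of the 6 tested, 2 rose, beside 7.65% of all genes tested. The 2 were Ppbp (log2 fold change 1.59 ± 0.13, SE, edgeR adjusted p = 0.000355) and Pf4 (1.93 ± 0.27, adjusted p = 0.00447), both stored in platelet granules. Both also belong to the list of 7 platelet markers and are among its 3 that were higher. That list is therefore not independent of them. It summed to 1716 to 1950 CPM in the GFP-positive and 629 to 841 CPM in the GFP-negative libraries. Those sums include Ppbp, with group means of 818 and 272 CPM, and Pf4, with 428 and 112 CPM (GFP-positive and GFP-negative). Of 9 other receptors, 5 were tested and 4 had no count. None of the 5 passed in edgeR, 0 had an unadjusted p under 0.05, and DESeq2 and limma voom also called 0.

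Of 25 genes that carry or limit the signal of chemokine receptors, 24 were tested, 8 fell, 3 rose and 13 did not pass. Over all genes tested, 10.1% fell and 7.65% rose. The median log2 fold change of the 24 was −0.53. The 6 with the smallest p all fell. Rac2, a GTPase of blood cells, fell from 835 ± 41.1 to 265 ± 10.2 CPM (SD, n = 3 each, edgeR adjusted p = 0.000153). Dock2, the exchange factor that turns on Rac in lymphocytes, was at −3.99 on the log2 scale (edgeR adjusted p = 0.00117), and its partner Elmo1 was at −3.01 (0.00217). Ptk2b, the kinase Pyk2, was at −3.23 (0.000770), Rgs2, which shortens G protein signals, at −2.04 (0.00375), and Grk6, a receptor kinase, at −1.96 (0.00841).

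The 3 that rose against most of this list were Fgr, a kinase of the Src family in myeloid cells, Rgs18, a regulator of G protein signals in platelets and myeloid cells, and Arrb2, an arrestin. Their log2 fold changes were 1.91, 1.21 and 0.92, with edgeR adjusted p-values of 0.0396, 0.0366 and 0.0301. Of 6 genes that process or hold chemokines, 2 rose, 1 fell and 3 did not pass, beside 7.65% of all genes that rose and 10.1% that fell. Those that rose were Dpp4, a protease that trims and inactivates Cxcl12 and other chemokines (log2 fold change 0.76, adjusted p = 0.0284), and Hpse, which cuts heparan sulphate (1.01, adjusted p = 0.0259). Sdc4, a heparan sulphate proteoglycan that binds chemokines, had a log2 fold change of −2.71 (adjusted p = 0.00109).

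Markers of further cell types were read beside these groups. Of the monocyte and macrophage markers tested, 3 of 7 were higher and 2 lower, with a summed 6941 to 7328 CPM in the GFP-positive and 834 to 993 CPM in the GFP-negative libraries. Neutrophil markers, a list that holds Cxcr2, summed to at most 11.7 CPM in any library and 0 of 3 tested passed in edgeR, in DESeq2, in limma voom or at an unadjusted p under 0.05. Dendritic cell markers, a list that holds Ccr9, rose in 1 of 6, at 432 to 465 against 182 to 249.8 CPM. None of 4 lymphatic endothelial and none of 4 stellate cell and fibroblast markers tested passed in edgeR. At an unadjusted p under 0.05 there were 2 of the former and 1 of the latter, DESeq2 called 2 and 1, and limma voom called 0 and 1. Of 7 hepatocyte markers 3 were lower, at 1150 to 1787 CPM in the GFP-positive and 2137 to 2317 CPM in the GFP-negative libraries. The part of these cell types in the chemokine results was not tested.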

How the data were processed

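The deposited values are raw read counts of the authors, as whole numbers for 6 libraries under Ensembl identifiers, of which 34490 of 35275 matched a symbol in a supplied table. Tools named in the submitters' processing notes, without roles, were edgeR, DESeq 1.18.0, RSEM, HTSeq 0.6.1, TopHat2 2.0.12 and Bowtie2 2.2.3. No source used here gives the genome build, the annotation or the strand of counting. Per the labels' protocols, libraries were made with poly-T beads and PCR, with no molecular identifiers mentioned, so intervals and floors cover counting error only. No 2 libraries agreed within sampling noise (chi-square per degree of freedom within groups 73.7 to 125.5).

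Counts were analysed in R 4.3.3. Genes kept by edgeR 4.0.16's filter (minimum count 10) were TMM-scaled and compared between groups by its robust quasi-likelihood test, adjusted by Benjamini-Hochberg over 12122 genes, with a threshold of 0.05. CPM are counts per 1000000 of the TMM-scaled totals of these genes. SEs come from the test statistic. A group at 0 was set at 3 counts over the group. For groups with 1 to 3 counts, the 95% interval of the ratio uses the exact Poisson limits of that group's count. The mean of the other group is held fixed in it. Alternatives were total-count and upper-quartile scaling, scaling without lymphocyte genes, DESeq2 1.42.0, limma 3.58.1 voom, no low-count filter, no robust estimation, and leaving out each library. The code was tested on simulated data.

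All 36 members are accounted for. Other genes were named from written lists, up to 6 with the smallest p and any against most of the list, and exon overlaps were noted after values were seen. Members, lists and pairs were chosen with earlier results of these data known. Some genes of the pathway are not reported here.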

Additional observations from a re-analysis of the deposited data

How the results depend on the processing

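All 10 calls were kept under each of the 7 alternatives that used all 6 libraries, and no chemokine gene called in the main test changed direction under any alternative. The count of higher members was 6 in the main test and 5 to 9 over all alternatives, and the count of lower members was 4 and 3 to 5. DESeq2 called 9 higher and 5 lower, adding Ccl2 (adjusted p = 0.000543), Ackr1 (0.0191), Ackr4 (0.0185) and Cxcl1 (0.0301). Limma voom added Ccl2 (0.0310) and Ackr4 (0.0436), and the fit without robust estimation added Cxcl1 (0.0430). Over all genes 2157 were called, and 994 to 1810 when 1 library was left out, the lowest counts being 994, 1027 and 1045 without GFP-negative library 1, 2 or 3. The other alternatives called 1751 (no filter) to 3225 (DESeq2) genes.

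Signs changed for 2 genes that passed nowhere. Cx3cr1, at 0.53 on the log2 scale, was at −0.26 with limma voom and ran from −0.50 (without GFP-positive library 1) to 1.11 (without GFP-positive library 2). Ccl9, at 0.54, ran from −0.18 (without GFP-positive library 3) to 1.60 (without GFP-negative library 2). The cause was not tested. Of the members called, Cxcl12 and Cxcr5 lost their call when certain libraries were left out, as given with their values. No paired analysis was possible because the labels give the groups no shared replicate numbers. With 3 libraries a group, receptors of a few counts, such as Ccr2 and Ccr9, were below what the test could address.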
